A study of Homo sapiens with 6 samples.

Results

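The genes described here are 10 members of the insulin-like growth factor (IGF) axis: the binding proteins IGFBP1, IGFBP2, IGFBP3, IGFBP4 and IGFBP6, the ligand IGF2, the receptors IGF1R and INSR, and the receptor substrates IRS1 and IRS2. They were chosen by symbol, with earlier results of these data known, out of 58515 symbols that stand on a single row of the tables. All 10 were found in every library. The libraries were poly-A RNA sequencing of tumours grown in host animals from MHCC97L, an established human liver cancer line. The tumours were either controls (Ctrl, 3 libraries) or treated with the recombinant human form of lumican (rhLUM, 3 libraries), a secreted proteoglycan of the extracellular matrix. The sources used here do not give the dose, route, duration or host strain, or say if the 3 libraries of a group were 3 tumours. The p-values measure only the spread between these libraries, which may be technical.

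IGF1 and IGF2 are growth factors related to insulin. They signal through IGF1R, a receptor tyrosine kinase, while insulin signals mainly through INSR, and both receptors pass the signal to IRS1 and IRS2, which recruit phosphoinositide 3-kinase and so AKT. The binding proteins are secreted and hold IGFs outside the cell, where they can carry them, keep them from the receptor or release them when cleaved. Liver is the main source of circulating IGF1 and IGFBP1, and IGF2 is a fetal liver growth factor that some liver cancers express again.

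Values are TPM, a share of the library's transcripts after division by transcript length, so levels of different genes can be set side by side. Depth is unknown in such values, and no counting interval can be given. In bulk tumour RNA, fewer cells that express a gene and less RNA per cell cannot be told apart. Of 12 liver markers 11 had a mean of at least 1 TPM, and of these rhLUM libraries had 8 higher and 1 lower (limma, adjusted p under 0.05), or 7 and 3 under upper quartile scaling. The counts of both marker lists stand beside 44.5% higher and 22.3% lower among all genes tested. Under upper quartile scaling 4527 of all 14781 tested genes were higher and 5117 lower. ALB rose from 289 ± 3.08 to 825 ± 15.4 TPM with rhLUM (SD over 3 libraries), and TF and HNF4A also rose, while SERPINA1, alpha-1 antitrypsin, fell from 380 ± 2.27 to 208 ± 5.32 TPM. APOA1 had a mean under 1 TPM, at 0.30 to 0.34 and 0.95 to 1.40 TPM. Of 17 markers of stromal, endothelial and blood cells 9 had a mean under 1 TPM. Of the other 8, 4 were higher and 1 lower, or 3 and 1 under each of 3 rescalings and when values were corrected for the length and GC content of transcripts, called the length-GC correction here, COL1A1 losing its call. The summed level of all 17 was 241 to 245 TPM in Ctrl and 335 to 345 in rhLUM, most of it LYZ, CD68 and PECAM1. The endothelial markers went apart: PECAM1 rose by 0.59 on the log2 scale, while CDH5 fell from 3.10 ± 0.34 to 0.45 ± 0.053 TPM (limma adjusted p = 6e-05). The pan-leukocyte marker PTPRC was listed at 0.03 to 0.23 TPM in Ctrl and 0.16 to 0.23 in rhLUM, and the B cell marker MS4A1 at 0 in all 6 libraries. The part of other cells in the results below was not tested.

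Start regions are shown for 3 members that the results turn on: IGFBP3, IGFBP6 and IRS2. IGFBP3 was the most abundant member and lower with rhLUM. IGFBP6 had the largest log2 rise of the 9 members with a mean of at least 1 TPM. IRS2 is the receptor substrate that fell. RefSeq start regions on GRCh38.p14 were matched for 8 of the 10 members, and those of IGFBP1 and IGF2 were not matched. Each sequence is the 250 bases before the RefSeq start, 5′ to 3′ on the strand of the gene. The lines give IGFBP3 at chr7:45921273-45921522 (minus strand), IGFBP6 at chr12:53097417-53097666 (plus strand) and IRS2 at chr13:109786584-109786833 (minus strand). GENCODE release 29, another gene annotation, places some starts further upstream. Its IGFBP3 span, chr7:45912245-45921874, holds the whole IGFBP3 region. Its IGFBP6 span, chr12:53097436-53102345, holds most of the IGFBP6 region.
IGFBP3: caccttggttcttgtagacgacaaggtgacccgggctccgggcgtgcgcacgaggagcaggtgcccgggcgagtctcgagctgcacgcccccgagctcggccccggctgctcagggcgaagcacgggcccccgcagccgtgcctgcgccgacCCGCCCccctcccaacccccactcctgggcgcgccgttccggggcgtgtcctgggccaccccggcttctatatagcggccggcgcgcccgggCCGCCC
IGFBP6: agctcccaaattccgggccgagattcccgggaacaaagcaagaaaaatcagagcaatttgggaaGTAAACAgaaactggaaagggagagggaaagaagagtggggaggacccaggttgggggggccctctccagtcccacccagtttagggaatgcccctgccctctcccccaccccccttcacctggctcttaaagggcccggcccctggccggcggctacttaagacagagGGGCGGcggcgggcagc
IRS2: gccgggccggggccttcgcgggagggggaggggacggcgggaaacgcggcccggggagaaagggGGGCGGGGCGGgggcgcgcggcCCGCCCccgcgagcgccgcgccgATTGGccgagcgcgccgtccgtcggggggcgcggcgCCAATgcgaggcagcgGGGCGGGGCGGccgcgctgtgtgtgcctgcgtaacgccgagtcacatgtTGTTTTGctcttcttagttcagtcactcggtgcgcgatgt
Capitals mark any of 5 motifs searched on both strands: the FOXO core GTAAACA, the insulin response core CAAAACA, the TATA box TATAAA, the GC box GGGCGG and the word CCAAT. Overlapping GC boxes run together in the capitals.

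Of the 8 members with a matched region, IGFBP6 was the one that held GTAAACA, 186 to 180 bases before its RefSeq start. That word was found in 2.98% of 35116 RefSeq start regions of that length. IGFBP1 and IGF2 could not be searched. IRS2 held the insulin response core on the other strand, TGTTTTG, 40 to 34 bases before its start, against 4.3% of regions. Neither word was found in the 250 bases of IGFBP3, which held 2 GC boxes. The exact letters TATAAA were not in it, but it does hold tatata near its start. Variants of the TATA box were not searched. The word TATAAA was found in IGFBP4, 29 to 24 bases before its start, and in 10.7% of all regions. Every matched member had at least 1 GC box in at least 1 region, against 42.6% of all regions. IRS2 also held CCAAT at 2 places (32.0% of all regions had at least 1). A match describes the letters and is not a site of binding.

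With rhLUM, the binding proteins went in opposite directions. The most abundant of them in Ctrl, IGFBP3 and IGFBP1, fell to 0.433 and 0.411 times their control level, while IGFBP6, IGFBP2 and IGFBP4 rose. The receptor gene IGF1R and the substrate gene IRS1 rose, IRS2 fell, and INSR did not pass the test. In total 5 of the 9 members with a mean of at least 1 TPM were higher and 3 were lower. Of all 14781 genes tested, 44.5% were higher and 22.3% lower, or 66.8% called (limma on log2(TPM + 1), adjusted p under 0.05). The groups did not overlap for any of the 10 members, which was so for 71.4% of all tested genes, so neither count sets the members apart from other genes. Their median absolute log2 fold change was 0.65, and that of all tested genes 0.41.

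**Figure D1:**
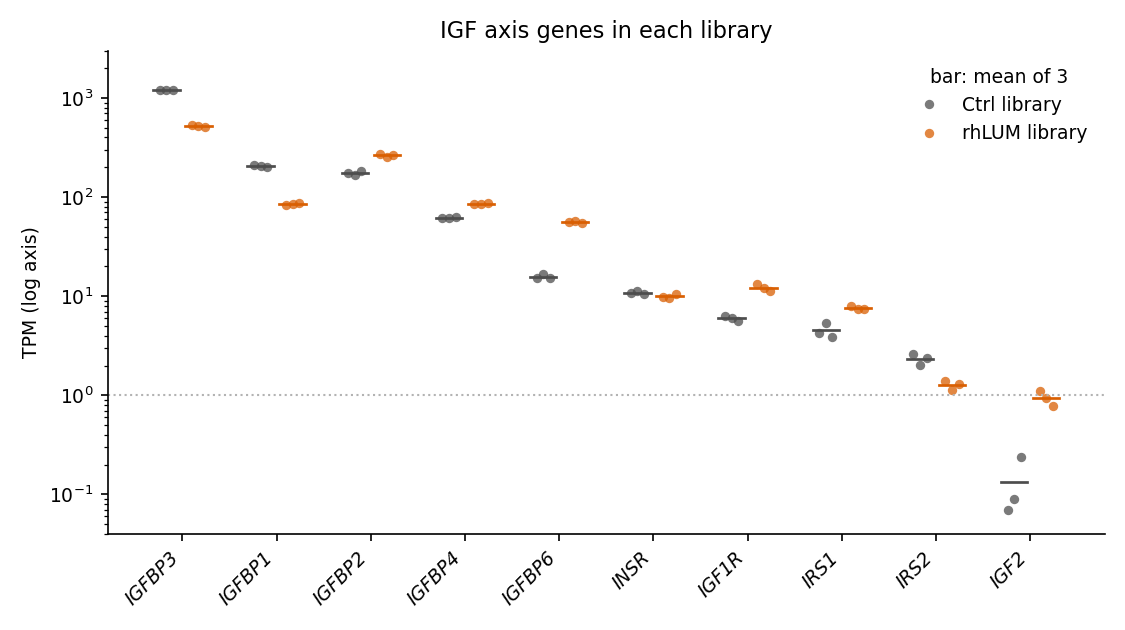
TPM of each of the 10 genes on a log axis, 1 point per library, grey for Ctrl and orange for rhLUM, with a bar at the mean of 3 and a dotted line at 1 TPM. IGFBP3 and IGFBP1 drop from 1204 and 206 to 522 and 84.7 TPM, IGFBP6 climbs from 15.7 to 56.2, and the INSR points of both groups nearly meet.

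IGFBP3 is the main IGF carrier of serum. It was listed at 1213.84, 1196.56 and 1202.60 TPM in Ctrl libraries A, B and C, against 530.87, 524.57 and 510.44 in the rhLUM libraries A, B and C. The groups were 665.69 TPM apart at their nearest. On the log2 scale it changed by -1.20 (SE 0.02, limma adjusted p = 2.74e-08), from 1204 ± 8.77 to 522 ± 10.5 TPM (SD, n = 3).

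IGFBP1 is a secreted liver protein whose gene insulin represses. Its values were 210.69, 204.87 and 202.90 TPM in Ctrl and 82.85, 84.74 and 86.37 in rhLUM. The groups were 116.53 TPM apart at their nearest. IGFBP1 changed by -1.27 on the log2 scale (SE 0.03, limma adjusted p = 1.17e-07), which put it at the 3.2 percentile of all tested genes, beside IGFBP3 at 3.6.

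IGFBP1 and IGFBP3 are neighbours on chromosome 7 (GENCODE release 29, GRCh38). IGFBP1 spans chr7:45888357-45893668 on the plus strand and IGFBP3 chr7:45912245-45921874 on the minus strand, so they point at each other across 18576 bp. Their ratio within a library hardly moved: IGFBP1 stood at 0.171 ± 0.0024 times IGFBP3 in Ctrl and 0.162 ± 0.0066 in rhLUM (SD, n = 3, exact permutation p = 0.2, two-sided). This ratio was chosen after the values were seen. Of the 6 other tested genes within 1000000 bp on either side, 2 were higher, TBRG4 (0.79) and CCM2 (0.20), 1 was lower, the pseudogene SEPT7P2 (-0.65), and 3 were not called, SNHG15 (-0.10), SNORA5A (-1.04) and SNORA5C (1.26). The neighbours thus did not share one direction, and among all tested genes 44.5% were higher and 22.3% lower.

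IGFBP6 binds IGF2 more tightly than IGF1. It was listed at 15.21, 16.69 and 15.19 TPM in Ctrl, against 56.23, 57.23 and 55.10 in rhLUM. The lowest rhLUM library was 38.41 TPM above the highest Ctrl library. Its log2 fold change of 1.78 (SE 0.05, limma adjusted p = 2.74e-07) was the largest of the 9 tested members, at the 99.4 percentile of all tested genes.

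IGFBP2, a binding protein abundant in fetal tissue, went from 175.05, 168.67 and 182.00 TPM in Ctrl to 270.47, 256.72 and 266.89 in rhLUM. IGFBP4, known as an inhibitor of IGF action that is released by cleavage, went from 61.03, 61.83 and 63.64 to 86.07, 84.70 and 87.50 TPM. Both rose by less than IGFBP6, and in neither did the groups overlap. The log2 fold changes were 0.59 for IGFBP2 (SE 0.03, adjusted p = 6.79e-06) and 0.46 for IGFBP4 (SE 0.03, adjusted p = 1.28e-05, limma). Both kept their call but became smaller under upper quartile scaling, at 0.36 for IGFBP2 and 0.23 for IGFBP4. IGFBP4 was at 0.30 under median-of-ratios scaling and IGFBP2 at 0.38 after the length-GC correction.

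Summed over the 5 binding proteins, the level fell from 1664 ± 13.8 to 1014 ± 11.2 TPM (SD, n = 3; exact permutation p = 0.1, two-sided, the smallest p that 3 against 3 libraries allow). IGFBP5, which is not among the 10 members, was listed at 161 ± 2.18 TPM in Ctrl and 222 ± 4.97 in rhLUM, a log2 change of 0.45 (limma adjusted p = 5.63e-06). With it the sum of IGFBP1 to IGFBP6 was 1825 ± 12.5 and 1235 ± 15.6 TPM. IGFBP2 and IGFBP5 are also neighbours that point at each other, 7668 bp apart on chromosome 2. Of the 6 other tested genes within 1000000 bp of them 4 were higher and 2 lower, beside 44.5% and 22.3% of all tested genes.

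Within that sum the make-up changed, a measure that does not depend on how libraries are scaled. IGFBP3 made up 66.0 ± 0.22% of IGFBP1 to IGFBP6 in Ctrl and 42.3 ± 0.46% in rhLUM, and IGFBP1 11.3 ± 0.20% and 6.86 ± 0.23% (SD, n = 3). IGFBP2 went the other way, from 9.60 ± 0.32% to 21.4 ± 0.50%. IGFBP6 rose from 0.86 ± 0.053% to 4.55 ± 0.089%. Each of these shares gave exact permutation p = 0.1. IGFBP1 stood above IGFBP2 in every Ctrl library, at 1.18 ± 0.055 times its level, and below it in every rhLUM library, at 0.32 ± 0.012 times (SD, n = 3). IGFBP3 stood at 19.4 ± 0.50 times IGFBP4 in Ctrl and 6.07 ± 0.20 times in rhLUM.

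**Figure D2:**
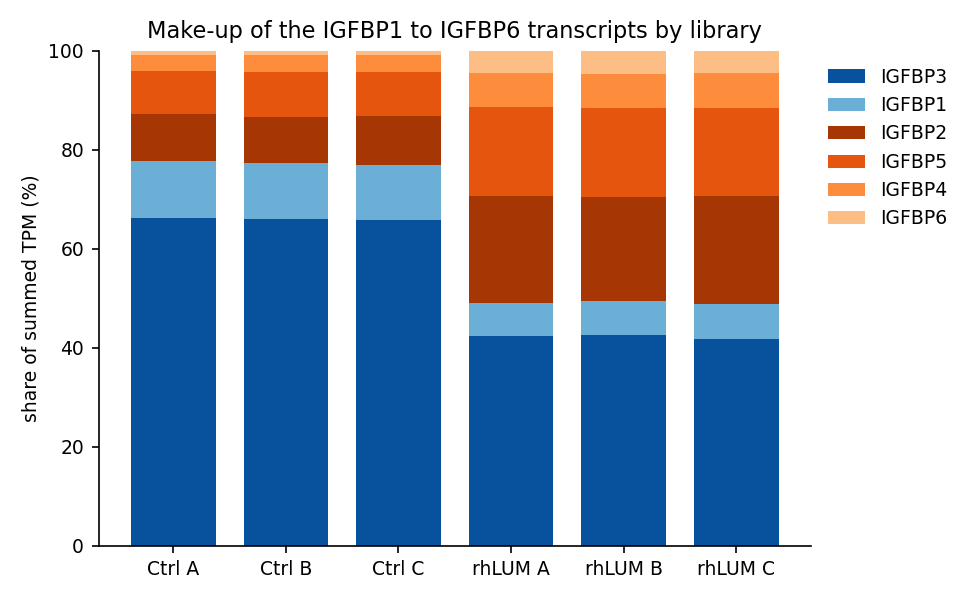
Share of the summed TPM of IGFBP1 to IGFBP6 taken by each gene, in percent, 1 stacked bar per library. IGFBP3 and IGFBP1 (blue) together take 76.8 to 77.6% in the 3 Ctrl libraries and 48.8 to 49.5% in the 3 rhLUM libraries.

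IGF2, the ligand among the members, was near the lower end of what the tables list. Its values were 0.07, 0.09 and 0.24 TPM in Ctrl and 1.10, 0.95 and 0.78 in rhLUM. The rhLUM libraries lay above the Ctrl libraries, but the mean over all 6 was under 1 TPM, so IGF2 was not among the tested genes. A fit without that filter gave a log2 change of 0.78 (SE 0.10, limma adjusted p = 0.00159). INS-IGF2, a read-through gene that overlaps IGF2, was listed at 0 in the Ctrl libraries and at 0.10, 0.31 and 0.34 TPM in the rhLUM libraries, and reads of the shared stretch can be split between them. IGF2 amounted to at most 0.00107 times the summed 5 binding proteins, in rhLUM A. H19, the noncoding neighbour of IGF2 in the same imprinted region, was far above it, at 78.74, 80.71 and 85.10 TPM in Ctrl and 121.91, 116.00 and 108.43 in rhLUM (log2 fold change 0.50, adjusted p = 1.05e-04).

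The other ligands were at or near 0. INS, the insulin gene, was listed at 0 in all 6 libraries, and IGF1 at 0.24, 0.01 and 0.01 TPM in Ctrl and 0.38, 0 and 0 in rhLUM. IGF2R, which takes up IGF2 for degradation and does not signal as IGF1R does, went from 11.80, 13.32 and 13.81 TPM to 53.77, 52.47 and 53.42. That is a log2 fold change of 1.96 (SE 0.06, limma adjusted p = 4.19e-07), a larger value than that of any of the 9 tested members. IGFBPL1, a protein related to the binding proteins, rose by 1.71 (adjusted p = 1.21e-06). Of the 10 genes on this list of further ligands, receptors and carriers, 5 had a mean of at least 1 TPM, 4 of these were higher and none lower. IGFBP7, a low-affinity relative, was the tested gene without a call (0.25, adjusted p = 0.196). These counts stand beside 44.5% higher and 22.3% lower among all tested genes.

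IGF1R was listed at 6.27, 5.99 and 5.64 TPM in Ctrl, against 13.23, 12.14 and 11.24 in rhLUM. All 3 rhLUM libraries lay at least 4.97 TPM above the Ctrl libraries. The log2 change was 0.92 (SE 0.08, limma adjusted p = 3.79e-05).

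INSR was listed at 10.73, 11.20 and 10.46 TPM in Ctrl, against 9.91, 9.69 and 10.45 in rhLUM. The nearest libraries, Ctrl C and rhLUM C, were 0.01 TPM apart. The log2 fold change was -0.10 with a 95% interval of -0.24 to 0.04 (SE 0.06, limma adjusted p = 0.171). INSR passed as lower under median-of-ratios scaling (-0.25, adjusted p = 0.00622), upper quartile scaling (-0.31, adjusted p = 0.00228) and rescaling without mitochondrial genes (-0.21, adjusted p = 0.0172). It also passed in the length-GC correction (-0.54, adjusted p = 1.17e-04). Whether INSR changed thus depends on the scaling. The splice forms of the receptor, which differ in how they bind IGF2, are not separated in these tables.

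The order of the receptors turned between the groups. INSR stood above IGF1R in every Ctrl library and below it in every rhLUM library. IGF1R was 0.584, 0.535 and 0.539 times INSR in Ctrl and 1.34, 1.25 and 1.08 times in rhLUM. The groups did not overlap, and the ratio was 2.20 times higher with rhLUM (exact permutation p = 0.1, two-sided).

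The receptor substrates were low and moved apart. IRS1 was listed at 4.28, 5.42 and 3.86 TPM in Ctrl, against 7.89, 7.36 and 7.52 in rhLUM. IRS2 was listed at 2.62, 2.01 and 2.37 TPM in Ctrl, against 1.40, 1.12 and 1.29 in rhLUM. In both genes the groups stood apart, by 1.94 and 0.61 TPM. IRS1 changed by 0.65 (SE 0.11, adjusted p = 0.00164) and IRS2 by -0.55 (SE 0.13, adjusted p = 0.00828, limma). The call of IRS1 was lost in the length-GC correction (0.21, adjusted p = 0.119).

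With a pseudocount of 0.1 the change of IRS2 was -0.83, since adding 1 TPM weighs on so low a gene. After the length-GC correction it was -0.84. Within a library IRS1 was 1.63, 2.697 and 1.63 times IRS2 in Ctrl and 5.64, 6.57 and 5.83 times in rhLUM. IRS1 was thus above IRS2 in all 6 libraries, by a wider margin in those of rhLUM. The ratio was 3.11 times higher with rhLUM (exact permutation p = 0.1, two-sided).

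The transcripts of IGF1R, INSR, IRS1 and IRS2 are long, at 12235, 8954, 9705 and 8138 nt for the longest annotated form, against 1177 nt for IGFBP6 and 1653 nt for IGFBP1. Fold changes of all genes moved with length: tested genes of at least 8000 nt had a median of 0.46 (1012 genes) and those under 2000 nt a median of -0.04 (2818 genes). Against the genes of their own length class IGF1R stood above the third quartile (0.83). IRS1 stood between the median and that quartile. INSR and IRS2 stood below the first quartile (0.03). IGFBP6 and IGFBP1 stood outside both quartiles of the shorter class (-0.40 and 0.26).

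**Figure D3:**
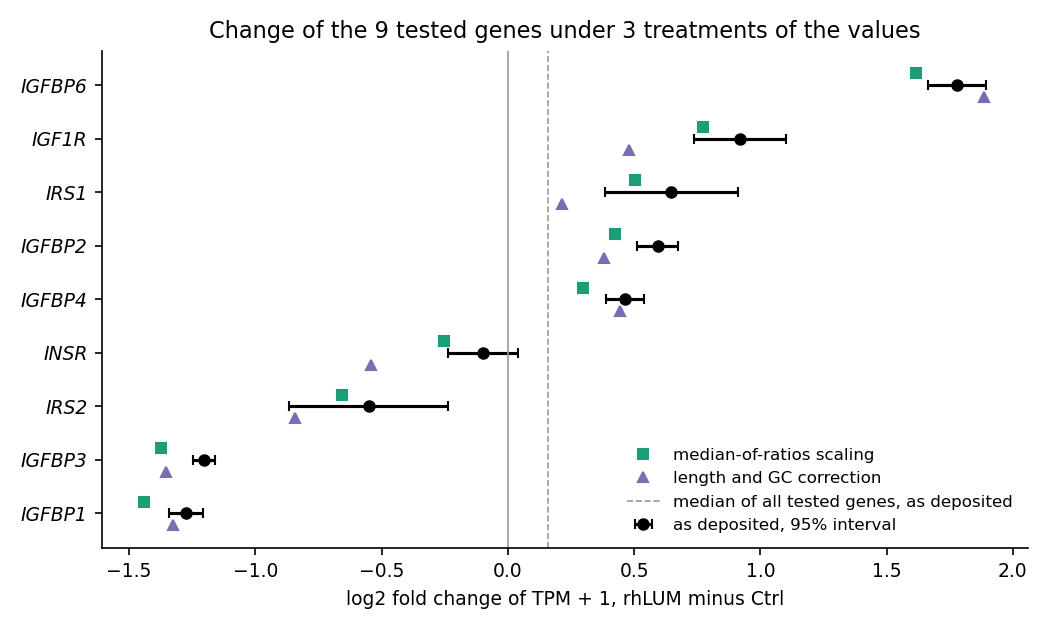
Log2 fold change of TPM + 1, rhLUM minus Ctrl, for the 9 tested genes, as deposited with 95% intervals (black), after median-of-ratios scaling (green squares) and after the length-GC correction (purple triangles). The correction brings IGF1R from 0.92 to 0.48, IRS1 from 0.65 to 0.21 and INSR from -0.10 to -0.54, while IGFBP1 and IGFBP3 stay at the lower and IGFBP6 at the upper end in all 3 treatments.

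The order of levels among the 10 genes in Ctrl was IGFBP3, IGFBP1, IGFBP2, IGFBP4, IGFBP6, INSR, IGF1R, IRS1, IRS2 and IGF2, and no neighbours in it overlapped. With rhLUM it was IGFBP3, IGFBP2, IGFBP4, IGFBP1, IGFBP6, IGF1R, INSR, IRS1, IRS2 and IGF2. There IGFBP4 (86.1 ± 1.40 TPM) and IGFBP1 (84.7 ± 1.76 TPM, SD, n = 3) overlapped. The remaining members lie at chr2:216632828-216664436 (IGFBP2), chr17:40443461-40457731 (IGFBP4), chr12:53097436-53102345 (IGFBP6), chr15:98648539-98964530 (IGF1R), chr19:7112255-7294034 (INSR), chr2:226731317-226799759 (IRS1) and chr13:109752698-109786568 (IRS2) on GRCh38. IGF2 is annotated at 2 overlapping loci that share the start chr11:2129112. All 10 are protein-coding.

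Genes that cleave binding proteins or control that cleavage went both ways, 3 higher and 3 lower of 7 tested. ADAM9, a membrane protease, went from 119 ± 1.91 to 257 ± 2.12 TPM (SD, n = 3), while MMP7, matrilysin, stood at 612 ± 5.75 in Ctrl and 456 ± 11.3 in rhLUM. Stanniocalcins inhibit the pappalysins, which cleave binding proteins, and here STC1 changed by -1.77 (adjusted p = 1.24e-05) and STC2 by 0.86 (adjusted p = 5.08e-04, limma). The pappalysin PAPPA itself was at 0 to 0.01 TPM. PAPPA2 was at 0.08, 0.06 and 0.26 TPM in Ctrl and 0.05, 0.80 and 1.34 in rhLUM, and was not tested. The list's median was -0.07, beside 0.16 for all tested genes. The counts of this list and of those below stand beside 44.5% higher and 22.3% lower among all tested genes. Under upper quartile scaling 4527 of 14781 genes were higher and 5117 lower. After the length-GC correction 4371 of 12850 genes were higher and 4111 lower.

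IGF2 mRNA-binding proteins and regulators of the system had 7 higher and 1 lower of 9 tested (median 0.42). After the length-GC correction 3 were higher and 2 lower (median 0.042), and under upper quartile scaling the median was 0.20. HMGA1, a chromatin protein, rose by 1.03 (adjusted p = 1.08e-06), ZBTB10 by 0.82 and CTCF, the insulator protein of the IGF2 and H19 region, by 0.39, a call lost in that correction (0.04, adjusted p = 0.385). IGF2BP2 fell by 0.43 (adjusted p = 1.05e-04, limma), while IGF2BP1 rose by 0.86.

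Adaptors and inhibitors at the receptors had 10 higher and 7 lower of 19 tested (median 0.45), or 9 and 8 after the length-GC correction (median 0.09). SOCS1 and SOCS3, feedback inhibitors that also bind the receptors or their substrates, stood at 12.8 ± 0.77 and 75.4 ± 2.04 TPM (SD, n = 3) in Ctrl, against 0.22 ± 0.13 and 11.7 ± 0.085 TPM in rhLUM. Their log2 fold changes were -3.50 and -2.59 (limma adjusted p = 5.21e-07 and adjusted p = 2.44e-08). The others that fell were CISH (-1.02), PTPN2 (-0.75), SH2B2 (-0.60), GRB14 (-0.54), which inhibits the insulin receptor, and GRB10 (-0.29). Among those that rose were the phosphatases PTPN11 (1.18) and PTPN1 (1.12), which dephosphorylates the insulin receptor, and the adaptor GRB2 (0.95).

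Of 15 tested genes of the PI3K and AKT pathway 11 were higher and 1 was lower (median 0.49, or 0.26 under upper quartile scaling). Among all tested genes 44.5% were higher and 22.3% lower. The kinases PIK3CB and AKT2 rose by 0.90 and 1.03 and PIK3CA by 1.27, and TRIB3, an AKT inhibitor, by 0.46. INPPL1, a phosphoinositide phosphatase, fell by 0.38. Under each rescaling 2 were lower, GSK3A joining it (-0.11 as deposited, adjusted p = 0.104). INPP4B was not called with all libraries (-0.22, adjusted p = 0.507) and was called lower without rhLUM replicate A (-0.54, adjusted p = 0.0405). Of 17 mTOR genes 8 were higher and 4 lower (median 0.20), or 6 and 8 under upper quartile scaling and 7 and 7 after the length-GC correction, both with a median of -0.03. EIF4E, the cap-binding protein, rose by 1.11, EIF4EBP2 by 1.10, RPTOR by 1.01 and RICTOR by 0.60, the latter's call being lost in that correction (0.09, adjusted p = 0.236). MTOR (-0.42), TSC2 (-0.49), EIF4EBP1 (-0.36) and TBC1D7 (-0.17) fell. The call of TBC1D7 was lost whichever library other than rhLUM C was left out (largest adjusted p = 0.133).

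FOXO factors are held out of the nucleus by AKT and activate, among others, IGFBP1, IRS2 and INSR. Of 12 tested FOXO genes and targets outside the members, 8 were higher and 1 lower (median 0.45), or 4 and 2 after the length-GC correction (median 0.15). CITED2 (0.49), KLHL24 (0.62) and CCNG2 (0.78) rose and BCL6 fell by 0.56.  IGFBP1 and IRS2, like BCL6, were lower, and INSR was not called as deposited. The gluconeogenic targets PCK1 and G6PC were listed at no more than 0.12 TPM in any library.

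Genes that insulin induces in liver had 6 higher and 1 lower of 9 tested (median 0.37). Under upper quartile scaling and after the length-GC correction 4 were higher and 2 lower, with medians of 0.14 and 0.057. SCD, a fatty acid desaturase, rose by 1.15, ACACA by 0.99, ACLY by 0.78 and the regulator SREBF1 by 0.37. MLXIPL fell by 0.26. Its call was lost whichever library other than Ctrl A was left out (largest adjusted p = 0.11) and with the replicate letter as a block (adjusted p = 0.0509).

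**Figure D4:**
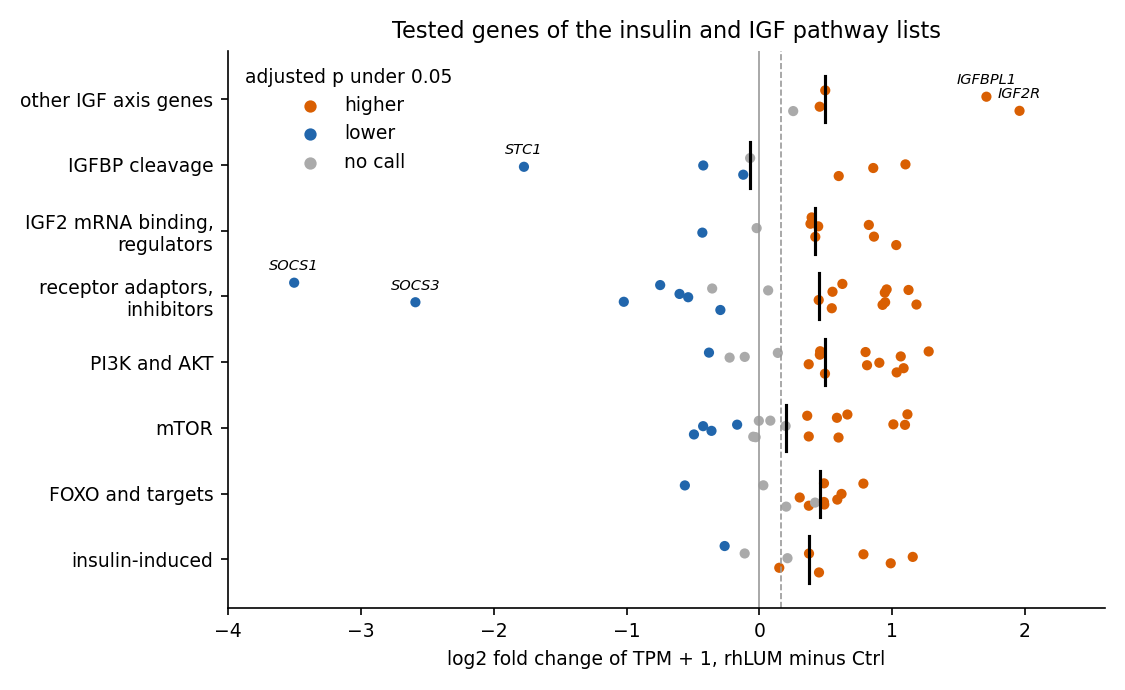
Log2 fold change of TPM + 1, rhLUM minus Ctrl, of each tested gene on 8 lists of the pathway, 1 point per gene (vertical spread within a list has no meaning), with a black bar at the list's median and a dashed line at the median of all tested genes. SOCS1, SOCS3 and STC1 lie furthest to the left and IGF2R and IGFBPL1 furthest to the right.

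By Pearson's r of log2(TPM + 1) over the 6 libraries, the genes most like IGFBP1 were B2M (0.99985), ASS1 (0.99984) and UBD (0.99979). Those most like IGF1R were BCKDHA (0.99963), KIF1BP (0.99938) and NCS1 (0.99934), and those most like IRS2 were GOLGA2 (0.9971), ZSCAN30 (0.9958) and SCARF1 (0.9954). The 6 points form 2 groups, so r mainly reflects the gap between them. Over 0.99 were 533 genes for IGFBP1, 554 for IGF1R and 18 for IRS2.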

How the data were processed

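The authors deposited TPM, 1 table per library, with 60725 rows named by gene symbol, per the file headers. Each table summed to about 1000000 TPM. The submitters' processing notes name STAR 2.7.8, RSEM 1.2.31 and GRCh38. The sources used here do not give the annotation release, strand setting or any removal of host reads, so host or antisense reads can add to a value. Rows whose symbol stood on another row were left out (2210 rows). Genes whose mean reached 1 TPM were fitted with limma 3.58.1 in R 4.3.3 on log2(TPM + 1), with its variance trend and no covariate beside the group, and Benjamini-Hochberg adjustment over 14781 genes. Fold changes are rhLUM minus Ctrl on that scale and understate changes of low genes. The code was tested on simulated data. Ratios, shares and figures used Python 3.11.15, with exact permutation tests in scipy 1.17.1. Loci and lengths came from GENCODE release 29 and start regions from RefSeq (GRCh38.p14).

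The members and gene lists were chosen with earlier results of these data known. All members are named. From each list up to 4 genes with the smallest p past the threshold, and any that moved against most of the list's calls, are named, with the genes most like IGFBP1, IGF1R and IRS2. Genes listed near 0, chromosomal neighbours, IGFBP7, ADAM28, IGF2BP1, PTPN1, GSK3A and INPP4B were named after their values were seen. PIK3R3 shares its symbol with another row and G6PC1 has no row under that symbol. Transcript length and GC content were known for 12850 tested genes (86.9%).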

Additional observations from a re-analysis of the deposited data

How the results depend on the processing

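The directions of the 9 tested members held under all alternatives run: 3 rescalings, a pseudocount of 0.1, no filter, at least 1 TPM in all libraries, limma without the trend, a replicate block, the length-GC correction, and leaving out each library. The counts of 5 higher and 3 lower stayed within 1.5 times. INSR passed as lower at -0.25 (median-of-ratios), -0.31 (upper quartile), -0.21 (without mitochondrial genes) and -0.54 (length and GC), and IRS1 did not pass at 0.21 (length and GC). The median of all tested genes moved from 0.16 by -0.15, -0.21, -0.10 and -0.15 under these settings in the same order, and the share of higher among called genes from 66.6% to 52.7%, 46.9%, 57.5% and 51.5%.

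The same-letter correlations of deviations were 0.03, -0.02 and 0.08, against -0.08 to 0.05 for different letters. No clear shared replicate effect was seen, but these values cannot show whether the libraries were paired. With the replicate block 6429 genes were higher and 3219 lower, IGFBP1 stood at -1.27, and no call of the 9 members changed. Of the listed genes MLXIPL, ADAM28 and COL1A1 lost their call under the block (adjusted p = 0.0509, 0.0577 and 0.0559, limma), so the insulin-induced list had 0 lower, and SOCS2 gained one (adjusted p = 0.0491).

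Counts lower for the PI3K list were 2 under the 3 rescalings and 3 with the length and GC correction, for the FOXO list 2 under all 4, and for the insulin-induced list 2 under all 4. Leaving out each library gave 1 to 2 lower for PI3K and 0 to 1 for insulin-induced genes. The mTOR list had 8 lower with upper quartile scaling and 7 with length and GC, under which the regulator list had 3 higher and 2 lower and the FOXO list 4 higher. With 1 added to each TPM the log2 ratio of IRS1 over IRS2 was 1.1995 in place of 1.64, and of IGF2 over the binding proteins 1.49 in place of 3.74, since 1 TPM outweighs low values. The other causes were not tested.  Depth is unknown, so the precision of low values such as those of IGF2 and IRS2 cannot be given.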
